A study of Mus musculus with 33 samples.

Results

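The miRNAs miR-144, miR-451 and miR-486 were followed in mouse lung after instillation of carbon black nanoparticles into the trachea. They were taken by name as the miRNAs of the red cell lineage, with every probe that the array carries for mmu-miR-144, mmu-miR-451 and mmu-miR-486, and they are 3 of the 650 miRNAs on the array. Each was measured by 2 probes of 10 spots, which made 6 probes and 60 spots per array. The arrays are one-colour Agilent miRNA microarrays, on which the brightness of a spot rises with the amount of labelled miRNA bound to it. The mice were female C57BL/6, a common inbred strain, and were not pregnant. Exposed mice received 0.162 mg of Printex 90, an industrial carbon black of nanosized particles, and control mice received the vehicle alone, which was 0.9% NaCl in MilliQ water with 10% (v/v) acellular bronchoalveolar lavage fluid (BAL). Lung tissue was taken 1, 3 or 28 days later, and the labels used here state no age. Each array held the RNA of 1 mouse. The vehicle groups had 6 arrays at every time point, and the exposed groups had 6 at day 1, 4 at day 3 and 5 at day 28. The series design names 6 mice per group, so the exposed groups of days 3 and 28 fall short of it.

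Circulating red cells have lost their nucleus but still carry mature miRNAs, and miR-451, miR-144 and miR-486 are among the most abundant of them. The genes of miR-144 and miR-451 lie side by side and are transcribed together under GATA1, the main transcription factor of the red cell lineage, while miR-486 is made from within the gene of erythroid ankyrin, Ank1. The lung holds a large volume of blood in its capillaries, so RNA of lung tissue contains red cell miRNAs. In bulk tissue, fewer red cells and less miRNA per red cell cannot be told apart.

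Both mature miRNAs of the shared locus are shown because their seeds decide which mRNAs they bind, and because their positions in the hairpins set them apart. The sequences come from a RefSeq table (GRCm38.p6) that was matched for 2 of the 3 members, and in the mature forms capitals mark the seed, bases 2 to 8.
miR-144-3p: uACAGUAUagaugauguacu
miR-451a: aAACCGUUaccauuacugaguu
In the hairpins, capitals mark the mature miRNA.
Mir144: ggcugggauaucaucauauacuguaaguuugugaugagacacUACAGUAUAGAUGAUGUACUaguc
Mir451a: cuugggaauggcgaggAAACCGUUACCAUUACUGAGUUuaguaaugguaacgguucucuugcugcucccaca

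Mature miR-144-3p lies at chr11:78073047-78073066 on the plus strand and mature miR-451a at chr11:78073186-78073207 on the same strand. Their hairpin genes, Mir144 and Mir451a, are separated by 99 bases. In Mir144 the mature form takes bases 43 to 62 of 66, in the 3′ arm. In Mir451a it takes bases 17 to 38 of 72, from the 5′ arm into the loop, and this miRNA is known to be cut by Argonaute 2 in place of Dicer. The array's name for miR-144 gives no arm, and the 3′ form is the one that carried the plain name in older annotation. The seeds of miR-144-3p and miR-451a differ from each other, and no other mature miRNA in the RefSeq table shares either. The nearest relative is miR-101a-3p, which shares bases 2 to 7 with miR-144-3p. Mir486 lies on chromosome 8 within the span of Ank1, apart from the other two.

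Levels are given as the log2 of the scaled spot signal, so that 1 unit is a doubling, and they compare arrays for 1 probe but not 1 miRNA with another. The array's overall brightness, the 75th percentile of its signals before scaling, ran from 187 to 1211 over the 33 arrays, and between 99 and 193 of the 611 mouse miRNAs rose above background per array. It averaged 472 ± 288 (SD, n = 6) in control and 654 ± 95.6 (n = 6) in exposed lungs at day 1, 709 ± 310 (n = 6) and 628 ± 117 (n = 4) at day 3, and 956 ± 215 (n = 6) and 653 ± 285 (n = 5) at day 28. The arrays came on 9 slides scanned on 5 days. Controls always sat at other positions of the slide than exposed samples, so the effects of position and of exposure cannot be told apart. Slide 1, with replicates 1 to 4, lay away from the rest: on the leading principal component of the 94 miRNAs detected on every array, which held 36.1% of the variance within groups, its 4 arrays scored 3.25 to 4.62 and the other 29 arrays -2.69 to 1.11. The exposure changes, the interactions, the comparisons of exposed lungs between days and the correlations are therefore also given without slide 1. Both endothelial miR-126 forms and all 5 epithelial miRNAs of the miR-200 family passed the detection filter. Liver miR-122 and 3 of 7 heart and skeletal muscle miRNAs passed it too, so detection alone does not identify the tissue.

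All 3 miRNAs were detected throughout. The brighter probe of each was above background on 33 of 33 arrays, and so was the dimmer probe of miR-144 and of miR-451, whereas that of miR-486 was above background on 23. On a typical array the 10 spots of the brighter probe had an SD of 0.088 log2 units for miR-144, 0.075 for miR-451 and 0.12 for miR-486. Both probes of a miRNA followed each other over the 33 arrays, with r of 0.98 for miR-144, 0.96 for miR-451 and 0.92 for miR-486, a description in which the probes share their arrays. The values below are those of the brighter probe.

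miR-144, which acts with miR-451 in the last steps of red cell maturation, had a lowest, median and highest level of 7.34, 8.15 and 8.63 in control lungs at day 1. In exposed lungs at day 1 these were 7.77, 8.33 and 8.44. Control lungs at day 3 gave 7.61, 8.19 and 8.57. The 4 exposed lungs at day 3 read 8.06 (replicate 4), 9.04 (replicate 11), 8.63 (replicate 16) and 8.77 (replicate 33), so that 3 of them lay above every control of that day and 1 inside the control range. Control lungs at day 28 gave 7.53, 8.20 and 8.43. The 5 exposed lungs at day 28 read 8.02 (replicate 8), 7.99 (replicate 12), 8.50 (replicate 20), 7.14 (replicate 23) and 7.41 (replicate 30). Here 2 exposed lungs lay below every control and 1 above every control.

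miR-451, which protects red cells during maturation and is the brightest of these probes, had a lowest, median and highest level of 12.39, 12.84 and 12.98 in control lungs and of 12.14, 12.57 and 13.09 in exposed lungs at day 1. Control lungs at day 3 gave 11.93, 12.57 and 12.81, while the 4 exposed lungs read 12.46 (replicate 4), 13.61 (replicate 11), 12.60 (replicate 16) and 13.01 (replicate 33). At day 3, 2 exposed lungs were above every control and the other 2 were inside the control range. Control lungs at day 28 gave 12.30, 12.42 and 12.86. The exposed lungs of that day read 12.24 (replicate 8), 12.75 (replicate 12), 13.03 (replicate 20), 11.44 (replicate 23) and 12.22 (replicate 30), of which 3 were below every control and 1 above.

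miR-486, which is abundant in red cells and in muscle and dampens inhibitors of growth signalling, had a lowest, median and highest level of 4.92, 5.42 and 5.81 in control lungs and of 4.79, 5.45 and 5.59 in exposed lungs at day 1. Control lungs at day 3 gave 4.55, 5.12 and 5.36. The 4 exposed lungs at day 3 read 4.97 (replicate 4), 6.06 (replicate 11), 5.50 (replicate 16) and 5.96 (replicate 33), and 3 of them lay above every control. Control lungs at day 28 gave 4.66, 5.23 and 5.67. The exposed lungs of that day read 4.71 (replicate 8), 5.37 (replicate 12), 5.83 (replicate 20), 4.36 (replicate 23) and 5.11 (replicate 30), with 1 below and 1 above the control range.

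The same lungs stood at the ends for all 3 miRNAs. Exposed replicate 11 of day 3 had the highest level of all 33 arrays for each of them, and exposed replicate 23 of day 28 the lowest for miR-144, miR-451 and miR-486 alike. From the lowest to the highest array, the signal spanned 3.73-fold for miR-144, 4.51-fold for miR-451 and 3.25-fold for miR-486.

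**Figure D1:**
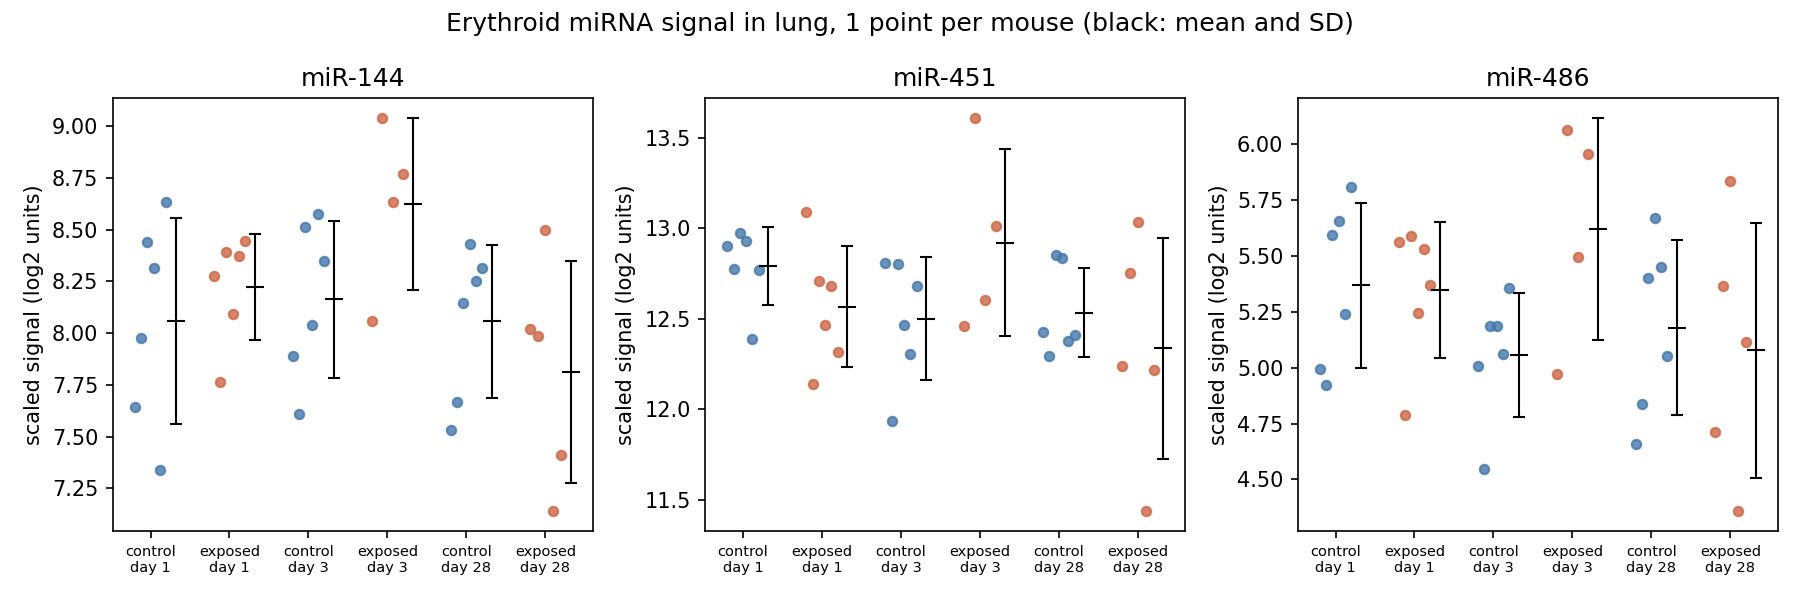
Scaled signal (log2 units) of miR-144, miR-451 and miR-486 in the 6 groups, 1 point per mouse, with the group mean and SD as a black mark and bar. The highest point of each panel is an exposed lung of day 3 and the lowest an exposed lung of day 28, and the control and exposed ranges overlap on every day.

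The mean was highest in exposed lungs of day 3 for all 3 miRNAs. For miR-144 it was 8.63 ± 0.41 (SD, n = 4), followed by exposed day 1 at 8.22 ± 0.26 (n = 6), control day 3 at 8.16 ± 0.38 (n = 6), control day 1 at 8.06 ± 0.50 (n = 6), control day 28 at 8.06 ± 0.37 (n = 6) and exposed day 28 at 7.81 ± 0.54 (n = 5). For miR-451 exposed day 3 stood at 12.92 ± 0.52, followed by control day 1 at 12.79 ± 0.21, exposed day 1 at 12.57 ± 0.34, control day 28 at 12.53 ± 0.25, control day 3 at 12.50 ± 0.34 and exposed day 28 at 12.34 ± 0.61. For miR-486 exposed day 3 stood at 5.62 ± 0.50, followed by control day 1 at 5.37 ± 0.37, exposed day 1 at 5.35 ± 0.30, control day 28 at 5.18 ± 0.39, exposed day 28 at 5.08 ± 0.57 and control day 3 at 5.06 ± 0.28. In each order, every step from a group to the next was smaller than the larger of the 2 SDs, and the ranges of neighbouring groups overlapped.

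At day 1 after instillation the mean changes of the 3 miRNAs were of mixed sign. The log2 change, exposed minus control, was 0.17 ± 0.23 (SE; 95% interval -0.30 to 0.63) for miR-144, a fold of 1.12. It was -0.22 ± 0.21 (-0.66 to 0.21) for miR-451 and -0.022 ± 0.22 (-0.48 to 0.43) for miR-486. Of the members, 0 of 3 passed an adjusted p of 0.05 in limma (0.755, 0.632 and 0.956 in the same order), where 0% of the 172 miRNAs tested were called. Without adjustment, 5.23% of the 172 were higher and 4.07% lower at p under 0.05, and none of the 3 was among them. Without slide 1 the changes were 0.072 for miR-144, -0.31 for miR-451 and -0.14 for miR-486.

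At day 3 all 3 were higher in the mean of the exposed lungs, and 37.8% of the 172 miRNAs tested had a log2 change above 0. The change was 0.46 ± 0.26 (SE; 95% interval -0.061 to 0.99) for miR-144, a fold of 1.38. For miR-451 it was 0.42 ± 0.24 (-0.061 to 0.90), a fold of 1.34, and for miR-486 it was 0.56 ± 0.25 (0.054 to 1.07), a fold of 1.48. The median change over all tested miRNAs was -0.036. Adjusted over the 172, p was 0.996 for each in limma, so 0 of 3 members were called, and 0% of all tested miRNAs. Before adjustment, limma's p was 0.0815 for miR-144, 0.0847 for miR-451 and 0.0314 for miR-486. In the order of p over the 172 miRNAs, they took ranks 7, 8 and 2, and miR-486 was among the 1.16% that were higher at an unadjusted p under 0.05. The exposed replicate 11 carried part of the difference: without it the log2 changes were 0.32, 0.19 and 0.42 for miR-144, miR-451 and miR-486. Leaving out exposed replicate 4 gave 0.65, 0.58 and 0.78 in the same order, and leaving out all of slide 1 gave 0.60, 0.64 and 0.77 (limma, adjusted p = 0.795, 0.612 and 0.612).

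At day 28 the means of the exposed lungs were lower, by amounts within the spread between lungs. The log2 change was -0.25 ± 0.24 (SE; 95% interval -0.74 to 0.25) for miR-144, -0.20 ± 0.22 (-0.65 to 0.26) for miR-451 and -0.10 ± 0.23 (-0.58 to 0.38) for miR-486. Of all 172 tested miRNAs, 56.4% had a change below 0, and the median was -0.034. In limma 0 of 3 members were called (adjusted p = 0.919, 0.931 and 0.986), against 0% of all tested. Slide 1 held no lung of this day. Without adjustment 2.33% of the 172 were lower and 5.23% higher at p under 0.05, and none of the 3 was among them. Exposed replicate 23 set the sign of 2 of these values: without it the changes were -0.078 for miR-144, 0.027 for miR-451 and 0.078 for miR-486. Over the 3 days together, the mean change was 0.13 ± 0.14 for miR-144, 0.00026 ± 0.13 for miR-451 and 0.15 ± 0.14 for miR-486 (SE; adjusted p = 0.781, 1.00 and 0.700), a contrast in which 0.581% of the 172 were called.

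**Figure D2:**
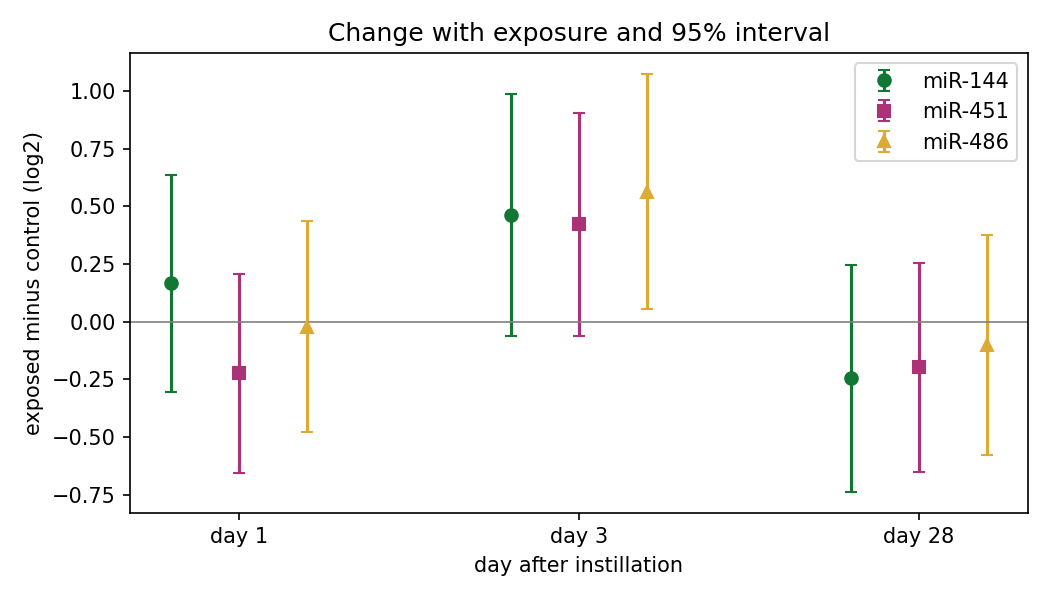
Change with exposure (log2, exposed minus control) of miR-144, miR-451 and miR-486 at days 1, 3 and 28, with the 95% interval from the limma fit as bars. At day 3 all 3 points lie above 0 and the interval of miR-486 begins at 0.054; the other 8 intervals include 0.

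The ranges of control and exposed lungs overlapped for all 3 miRNAs on each day, whereas they did not overlap for 0.581% of the 172 tested miRNAs at day 1, 0% at day 3 and 1.74% at day 28. Each slide that held exposed and control lungs of 1 day allowed a comparison within the slide. At day 1, each miRNA was higher in the exposed lung on 2 of 6 slides and lower on 4, and the same slides were higher for all 3: slide 1 (log2 differences of 0.63 for miR-144, 0.19 for miR-451 and 0.57 for miR-486) and slide 7 (1.03, 0.30 and 0.29). At day 3, miR-144 was higher on 4 of 4 slides (0.12 to 1.43), miR-451 on 2 (-0.35 to 1.68) and miR-486 on 3 (-0.035 to 1.51). The largest difference of that day was on slide 3 for all 3, at 1.43, 1.68 and 1.51, where exposed replicate 11 met control replicate 9, the lowest control of that day for miR-144, miR-451 and miR-486.

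At day 28, miR-144 and miR-486 were each higher in the exposed lung on 3 of 5 slides and miR-451 on 2. Slide 6, which held replicate 23, gave -1.29 for miR-144, -1.40 for miR-451 and -1.31 for miR-486, the lowest value of the day for each. The medians over the 5 slides were 0.32, -0.16 and 0.053, so that for miR-144 and miR-486 the median pair and the group means pointed opposite ways. Over the 15 pairs of all days, the 3 miRNAs were all higher in the exposed lung in 6, all lower in 6 and mixed in 3. Scan days joined at most 2 pairs of the same day: the 2 pairs of day 1 on scan day 3 averaged -0.14 for miR-144, -0.37 for miR-451 and -0.21 for miR-486, and the 2 pairs of day 28 on scan day 2 averaged 0.40, 0.14 and 0.29. With the slide as a block the changes at day 3 were 0.43, 0.32 and 0.56 for miR-144, miR-451 and miR-486, and with the scan day as a block they were 0.43, 0.34 and 0.57.

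**Figure D3:**
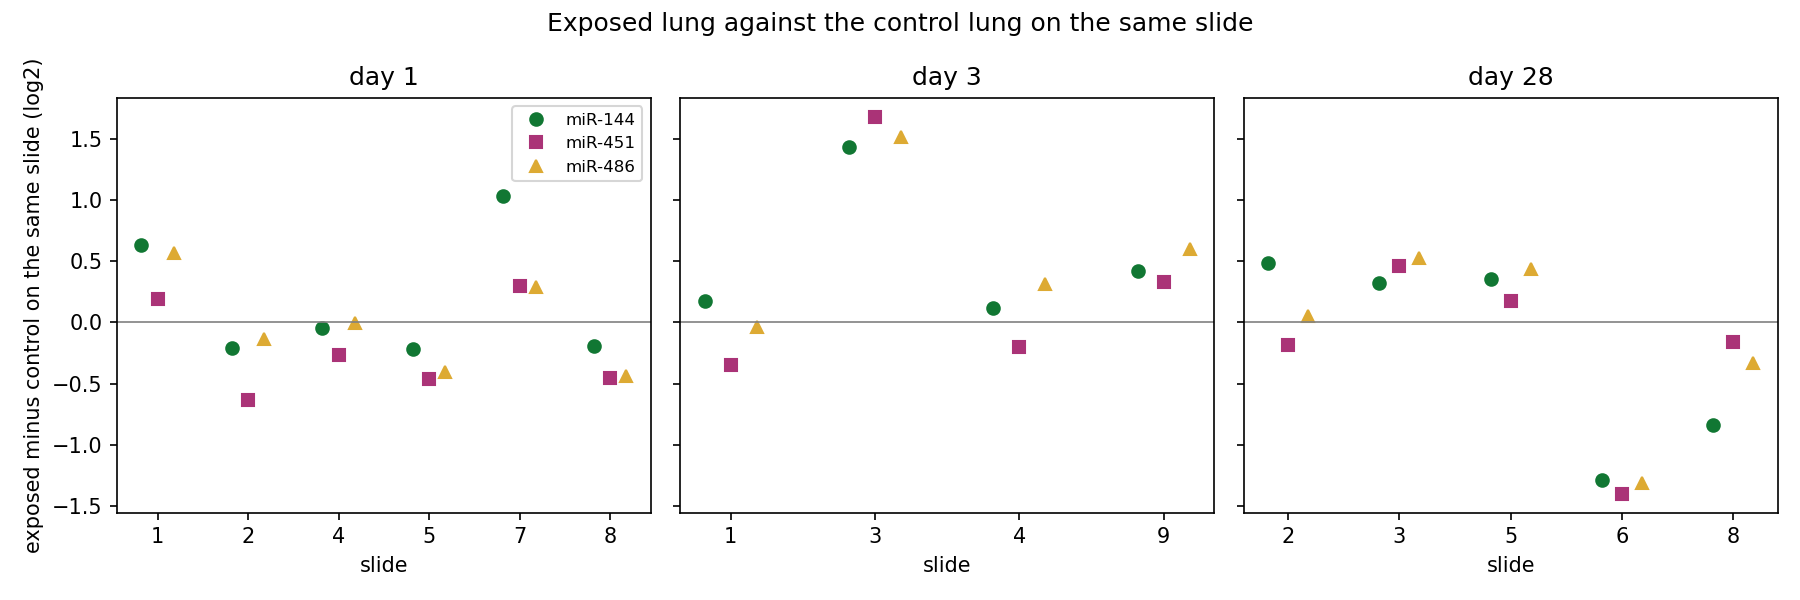
Exposed minus control lung on the same slide (log2) for miR-144, miR-451 and miR-486, with 1 panel per day and the slide number on the horizontal axis. On most slides the 3 symbols lie on the same side of 0, with the widest gaps on slide 3 at day 3 (1.43 to 1.68) and slide 6 at day 28 (-1.40 to -1.29).

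Among exposed lungs, the means of all 3 miRNAs were lower at day 28 than at day 3. The log2 difference was -0.81 ± 0.27 (SE; 95% interval -1.36 to -0.27) for miR-144, a level 1.76-fold lower, and 4 of 5 lungs of day 28 lay below every lung of day 3. It was -0.59 ± 0.25 (-1.09 to -0.084) for miR-451, 1.50-fold lower with 3 of 5 lungs below, and -0.54 ± 0.26 (-1.07 to -0.014) for miR-486, 1.46-fold lower with 2 of 5 below. None passed in limma over the 172 miRNAs (adjusted p = 0.126, 0.239 and 0.253), where 1.74% were called. All 3 had an unadjusted p under 0.05 (0.00472, 0.0237 and 0.0447), as did 15.7% of the 172 in the lower direction, and the median change of all tested was -0.13. With limma's array weights the difference of miR-144 was -1.01 and passed (adjusted p = 0.0140). Without exposed replicate 11 of day 3 the differences were -0.68 for miR-144, -0.36 for miR-451 and -0.40 for miR-486, and without exposed replicate 23 of day 28 they were -0.65, -0.36 and -0.36. Without slide 1 they were -1.003, -0.74 and -0.76 (adjusted p = 0.0655, 0.134 and 0.146).

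Between days 1 and 3, the exposed lungs differed by 0.40 ± 0.26 (SE) for miR-144, 0.35 ± 0.24 for miR-451 and 0.27 ± 0.25 for miR-486 (limma, adjusted p = 0.978 each; 0% of the 172 called). Between days 1 and 28 they differed by -0.41 ± 0.24, -0.23 ± 0.22 and -0.27 ± 0.23 in the same order (adjusted p = 0.408, 0.604 and 0.595; 0% called). Without exposed replicate 23 of day 28 these were -0.24, -0.0067 and -0.091, and without exposed replicate 20 they were -0.58, -0.41 and -0.46. Without slide 1 the exposed lungs differed by 0.60, 0.61 and 0.53 between days 1 and 3 (limma, adjusted p = 0.885 each). Between days 1 and 28 they differed by -0.40, -0.13 and -0.23 without slide 1 (limma, adjusted p = 0.347, 0.760 and 0.568). From day 1 to day 3 the vehicle groups differed by 0.10 ± 0.23 for miR-144, -0.29 ± 0.21 for miR-451 and -0.31 ± 0.22 for miR-486 (adjusted p = 0.933, 0.898 and 0.896; 0% called). From day 1 to day 28 they differed by -0.0014 ± 0.23, -0.26 ± 0.21 and -0.19 ± 0.22 (adjusted p = 0.995, 0.418 and 0.587), and 6.98% of the 172 miRNAs were called there, none of them a member. That count, 12 miRNAs, was 0 without control replicate 1 of day 1 and 22 without control replicate 17 of day 1. From day 3 to day 28 the control differences were -0.11 ± 0.23, 0.034 ± 0.21 and 0.12 ± 0.22 (adjusted p = 0.832, 0.953 and 0.796; 0.581% called).

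Whether the exposure change differed between days was tested as an interaction. The change at day 28 was lower than that at day 3 by 0.71 ± 0.35 (SE) for miR-144, 0.62 ± 0.32 for miR-451 and 0.67 ± 0.34 for miR-486 on the log2 scale (coded as differences of -0.71, -0.62 and -0.67). These did not pass (unadjusted p = 0.0533, 0.0658 and 0.0615, limma; adjusted p = 0.999 each), and 0% of the 172 were called. The change at day 3 exceeded that at day 1 by 0.30 ± 0.34 for miR-144, 0.65 ± 0.32 for miR-451 and 0.59 ± 0.34 for miR-486 (adjusted p = 0.990 each; 0% called). The change at day 28 differed from that at day 1 by -0.41 ± 0.33, 0.026 ± 0.31 and -0.080 ± 0.32 (adjusted p = 0.925, 0.983 and 0.971, with 0% called). Without slide 1, day 28 against day 3 gave -0.84, -0.83 and -0.87 (limma, adjusted p = 0.993, 0.941 and 0.941). Day 3 against day 1 then gave 0.52, 0.94 and 0.91 (limma, adjusted p = 0.849, 0.502 and 0.502). Day 28 against day 1 gave -0.32, 0.11 and 0.038 without slide 1.

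Within the groups, the 3 miRNAs moved together from lung to lung. After each group's mean was subtracted, miR-144 and miR-486 correlated over the 33 arrays with Pearson's r of 0.81 (two-sided permutation p = 1e-05, the smallest that 100000 resamples can give; adjusted over 3 pairs 1.5e-05) and Spearman's rho of 0.75 (p = 1e-05, adjusted 1.5e-05). Without the 2 arrays farthest from the median of miR-144, r was 0.81. miR-451 and miR-486, whose genes lie on different chromosomes, had r of 0.77 (permutation p = 1e-05, adjusted 1.5e-05) and rho of 0.73 (p = 1e-05, adjusted 1.5e-05), and r of 0.68 without the 2 arrays farthest from the median of miR-451. miR-144 and miR-451, from the shared locus, had r of 0.66 (permutation p = 8e-05, adjusted 8e-05) and rho of 0.55 (p = 0.00084, adjusted 0.00084), with r of 0.57 without the 2 arrays farthest from the median of miR-144. The p-values take each array as independent, and arrays share slides.

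These correlations stand in a background of correlated signals. Over the 4371 pairs of the 94 miRNAs detected on every array the median r was 0.094, with quartiles of -0.23 and 0.46. Of these pairs, 12.8% had an r at or above that of miR-144 and miR-451, 5.40% at or above that of miR-144 and miR-486, and 7.07% at or above that of miR-451 and miR-486. This background belongs to the main setting. The members' r in the settings below has no background of its own, so its rank among all pairs is not known. With the mean of each slide also subtracted, r was 0.76 for miR-144 and miR-451, 0.79 for miR-144 and miR-486, and 0.95 for miR-451 and miR-486, and with the mean of each scan day also subtracted it was 0.75, 0.76 and 0.93. Without slide 1 it was 0.73, 0.78 and 0.80. In control arrays alone, r was 0.50, 0.78 and 0.55 in the same order of pairs, and in exposed arrays alone 0.82, 0.85 and 0.90. The difference between control and exposed arrays in this respect was not tested. The dimmer probes gave 0.69, 0.89 and 0.72. Against the log2 brightness of the array, centred by group in the same way, r was 0.069 for miR-144, 0.071 for miR-451 and -0.10 for miR-486 (permutation p = 0.703, 0.694 and 0.565, n = 33; 0.703 each after adjustment over the 3), with rho of 0.068, 0.083 and -0.013 (p = 0.707, 0.641 and 0.943; adjusted 0.943, 0.943 and 0.943) and r of 0.25, 0.088 and 0.099 without the 2 arrays farthest in brightness.

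**Figure D4:**
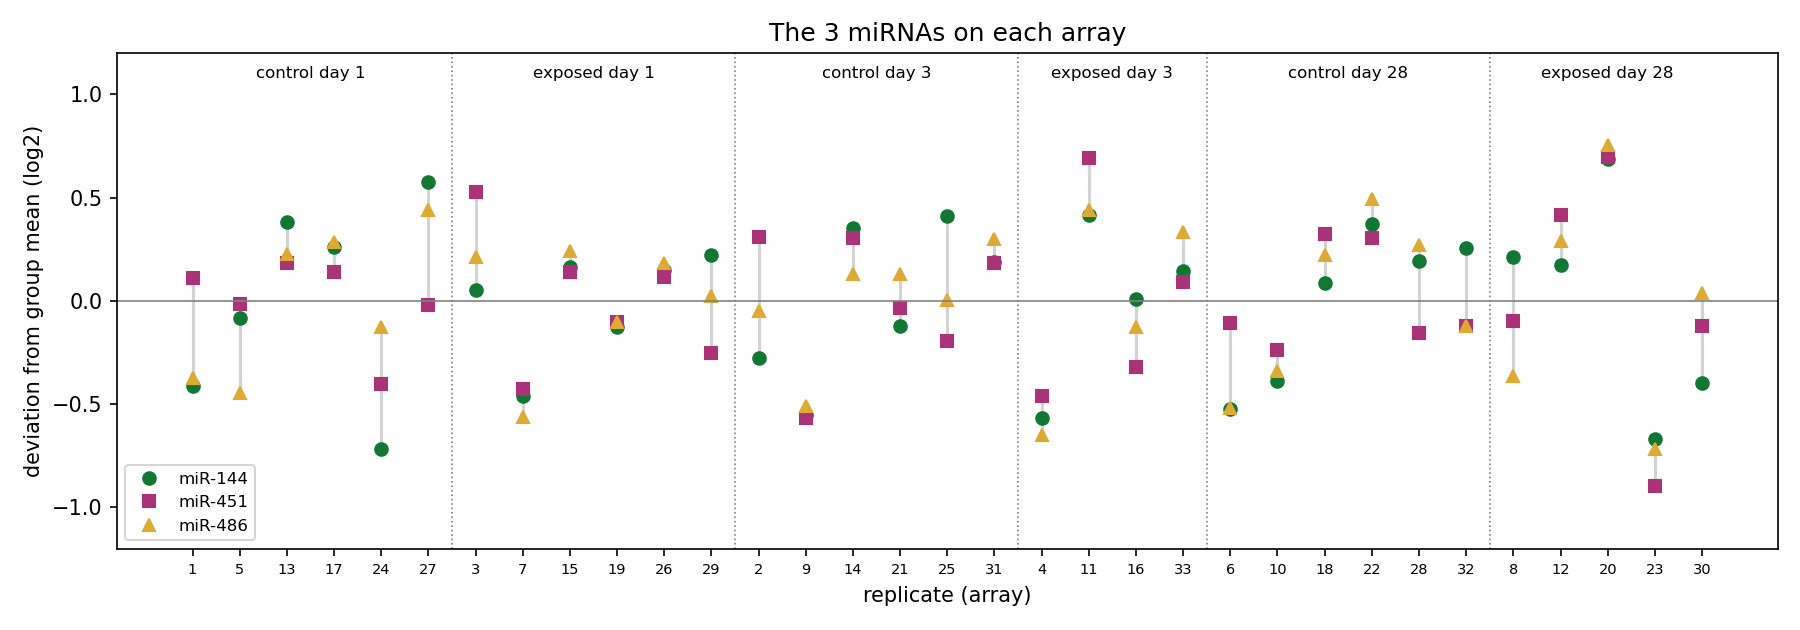
Deviation of miR-144, miR-451 and miR-486 from their group mean (log2) on each of the 33 arrays, ordered by group and labelled by replicate, with a grey line joining the 3 values of an array. The 3 symbols lie on the same side of 0 on 22 of 33 arrays, and replicate 20 (0.69 to 0.76) and replicate 23 (-0.90 to -0.67) of the exposed day 28 group lie at opposite ends.

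On 22 of 33 arrays all 3 miRNAs lay on the same side of their group mean. In the exposed group of day 28, replicate 20 was above the mean by 0.69 for miR-144, 0.70 for miR-451 and 0.76 for miR-486, and replicate 23 deviated by -0.67, -0.90 and -0.72. In the exposed group of day 3, replicate 11 deviated by 0.42, 0.69 and 0.44 and replicate 4 by -0.57, -0.46 and -0.65. Control lungs did the same in part: replicate 9 of day 3 deviated by -0.55, -0.57 and -0.51, and replicate 22 of day 28 by 0.37, 0.30 and 0.49. Control replicate 27 of day 1, the dimmest array of the series, split the miRNAs instead, with 0.58 for miR-144, -0.020 for miR-451 and 0.44 for miR-486.

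**Figure D5:**
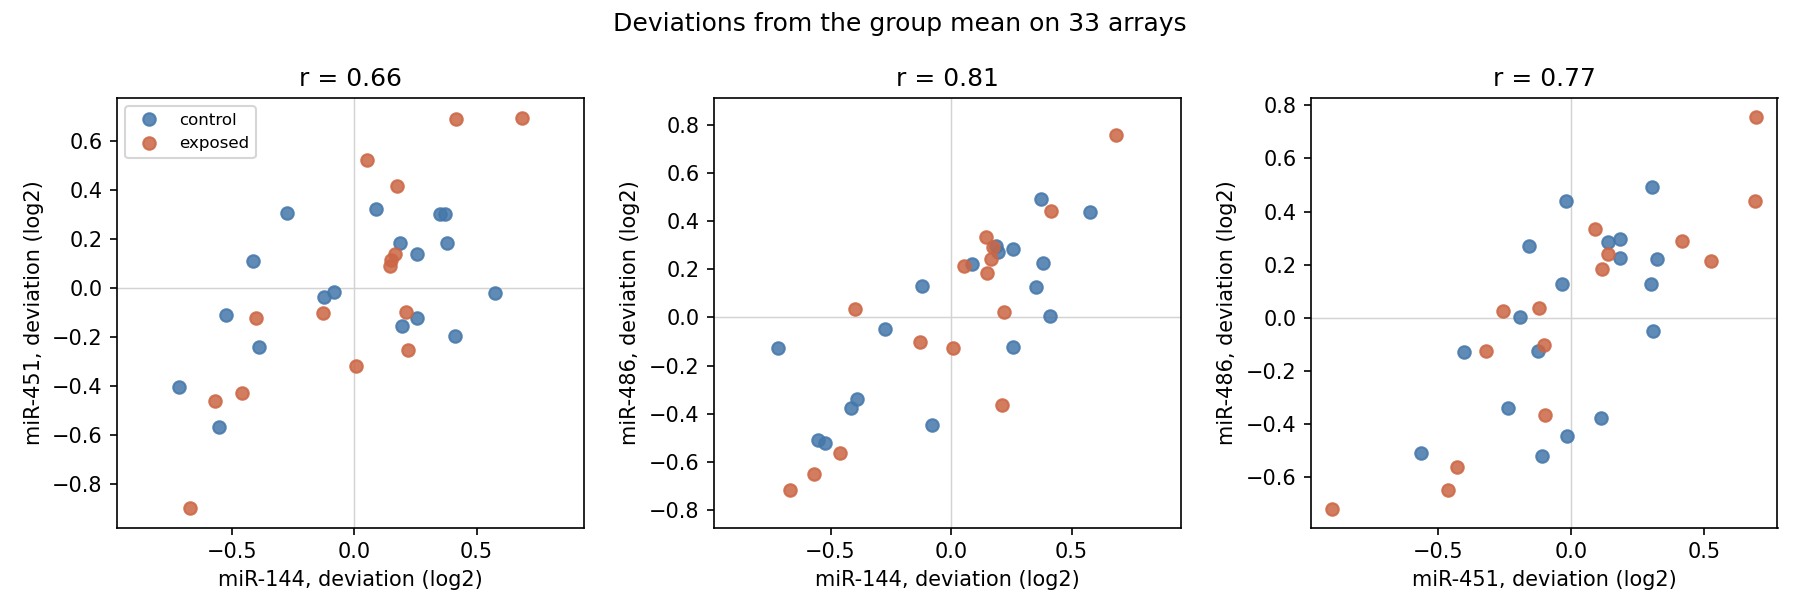
Deviations from the group mean (log2) of each pair of the 3 miRNAs, 1 point per array, control arrays in blue and exposed arrays in orange. The points rise from lower left to upper right in each panel, with r of 0.66 for miR-144 and miR-451, 0.81 for miR-144 and miR-486, and 0.77 for miR-451 and miR-486.

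Among the 93 other miRNAs detected on every array, miR-486 was the most like miR-144 and also the most like miR-451, by Pearson's r of the group-centred signal over 33 arrays. The other members took ranks 3 (miR-451 for miR-144), 2 (miR-144 for miR-451), and 1 and 2 (miR-144 and miR-451 for miR-486). Beyond the members, miR-144 was most like miR-365 (r = 0.73), miR-30b (0.54), miR-140* (0.54), miR-30e (0.51) and miR-30c (0.51). miR-486 was most like miR-365 (0.65), miR-140* (0.47), miR-30d (0.45), miR-30b (0.43) and miR-30c (0.42). miR-451 had another set of neighbours, led by miR-23a (0.54), miR-24 (0.40), miR-93 (0.37), miR-106b (0.36) and miR-365 (0.36). These values are descriptions over arrays that share their scaling. The seed relative miR-101a had r of 0.037 with miR-144, 0.054 with miR-451 and -0.32 with miR-486. At day 3 miR-365, the nearest non-member of miR-144 and miR-486, had a log2 change of -0.012 ± 0.13 (SE; limma, adjusted p = 0.996).

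The 3 miRNAs varied more between lungs of a group than most miRNAs of steady detection. Their residual SD over the 6 groups was 0.41 log2 units for miR-144, 0.38 for miR-451 and 0.40 for miR-486, against a median of 0.24 over the 94 miRNAs detected on every array, among which they ranked 12, 17 and 14. Over all 172 tested, which include dim probes, the median was 0.28 and they ranked 48, 56 and 51. In exposed lungs of day 28 their SDs were 0.54, 0.61 and 0.57, where the median of the 172 was 0.24, and in the controls of that day 0.37, 0.25 and 0.39, where it was 0.16. All 3 had a larger SD in exposed than in control lungs at days 3 and 28, as did 43.6% and 74.4% of the 172, and 1 of 3 did at day 1, against 18.6%. No test of these spreads was made.

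Differences between the members on 1 array are free of the array's scaling, and they varied less than the members did. Their residual SD was 0.33 log2 units for miR-144 minus miR-451, 0.27 for miR-486 minus miR-451 and 0.25 for miR-486 minus miR-144. The exposed and control means of these differences lay 0.041, 0.14 and 0.10 apart at day 3, and -0.048, 0.096 and 0.14 at day 28. At day 1 the gap was 0.39 for miR-144 minus miR-451, 0.20 for miR-486 minus miR-451 and -0.19 for miR-486 minus miR-144. A narrower spread was not particular to pairs of members: miR-451 minus miR-23a, which is no member, had a residual SD of 0.33. For miR-144 and miR-486 minus miR-23a it was 0.44 and 0.42.

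In plasma, miR-451 is set against miR-23a, a miRNA of nucleated cells that changes little with lysis of red cells, as an index of that lysis. In these lungs the log2 difference of miR-451 from miR-23a had a lowest, median and highest value of 0.30, 0.85 and 1.04 in controls of day 3 and of 0.63, 1.15 and 1.79 in exposed lungs of that day. The groups overlapped, and their means differed by 0.39. Set against miR-23a, miR-144 differed by 0.43 and miR-486 by 0.53 at day 3, close to the values from the main scaling. At day 28 the changes against miR-23a were -0.10 for miR-144, -0.057 for miR-451 and 0.039 for miR-486, and at day 1 they were 0.27, -0.12 and 0.084.

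The broader red cell miRNAs had changes around 0 at day 3, below those of all 3 members. Of 7 miRNAs that are abundant in red cells but also made by most other cells (miR-15b, miR-16, miR-22, miR-25, miR-92a, miR-185 and miR-363), 6 passed the detection filter and miR-363 was above background on no array. Of these 6, 0 were called on any day, against 0% of the 172 tested (3 had a change above 0 at day 3, 1 at day 1 and 2 at day 28), with median log2 changes of -0.032, -0.016 and -0.016 at days 1, 3 and 28. At day 3 their changes ran from -0.12 to 0.11. Among the 5 of them detected on every array, the highest r with a member was 0.40, between miR-16 and miR-144.

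The miRNAs known to fall as red cells mature (miR-24, miR-150, miR-155, miR-221, miR-222 and miR-223) are made in many white cells as well. Of 6, 5 were tested and 0 called, against 0% of all 172 tested, with median changes of 0.82, 0.085 and -0.037 at days 1, 3 and 28. Of the 5, 3 had a change above 0 at days 1 and 3 and 2 at day 28. At day 1 the changes ran from -0.11 for miR-24 to 1.10 for miR-222, where the median of all tested miRNAs was -0.097, and the list's median was the value of miR-223, which is also a myeloid marker. The 3 myeloid markers (miR-223 and both arms of miR-142) showed a median change of 0.51 at day 1, 0.016 at day 3 and 0.15 at day 28, with 0 of 3 called on each day, against 0% of all tested. miR-223, the miRNA of granulocytes, had a log2 difference of 0.82 ± 0.21 (SE; limma, adjusted p = 0.0994) at day 1 and did not pass.

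The markers of heart and skeletal muscle could be carried along with lung tissue, and miR-486 is also abundant in muscle. These markers had lower means in exposed lungs at day 3, when the members had higher ones. At day 28 the markers and the members both had lower means in exposed lungs. At day 1 the markers had higher means, and the members were of mixed sign. Of 7, 3 were tested (miR-1, miR-133a and miR-133b), the other 4 (miR-206, miR-208a, miR-208b and miR-499) were above background on no array, and 0 were called, against 0% of the 172 tested. Their median change was -1.35 at day 3 and -1.35 at day 28, and 0.64 at day 1. For miR-1, miR-133a and miR-133b the SEs were 0.84, 0.82 and 0.80 at day 3. They were 0.79, 0.76 and 0.75 at day 28, and 0.76, 0.73 and 0.72 at day 1. Their summed signal, in log2 units, ran from 6.18 to 8.81 (median 7.10) in control and from 5.02 to 6.48 (median 6.05) in exposed lungs at day 3, and from 5.25 to 8.02 and 4.99 to 6.34 at day 28. miR-1, the main miRNA of heart and skeletal muscle, differed by -1.39 ± 0.84 (SE; adjusted p = 0.996) at day 3. The part of other tissues in the members' levels was not tested.

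The remaining marker lists held 0 called miRNAs at days 1, 3 and 28 as well, days on which 0% of all 172 tested miRNAs were called. Median changes in that order of days were 0.15, 0.21 and 0.031 for the 2 endothelial forms of miR-126, whose cells line the vessels that hold the blood. Each is the midpoint of 2 unlike values. miR-126-3p changed by -0.057, 0.0027 and -0.19 (SE 0.097, 0.11 and 0.10), and miR-126-5p by 0.35, 0.42 and 0.25 (SE 0.62, 0.69 and 0.65). Median changes were -0.065, -0.078 and 0.024 for the 5 epithelial miRNAs, and -0.18, -0.089 and 0.082 for the 3 of 4 lymphoid miRNAs that were tested. For the single tested smooth muscle miRNA, miR-143, the changes were 0.19, 0.017 and 0.022 (SE 0.27, 0.30 and 0.29). For liver miR-122 they were 0.44, 0.38 and 0.28, each smaller than its SE (1.21, 1.35 and 1.27). The level of miR-122 ran from 0, the floor, to 6.99 in controls of day 1 and from 0 to 7.16 in controls of day 3. The members' own medians were -0.022, 0.46 and -0.20.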

How the data were processed

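RNA enriched for small RNA from 33 mouse lungs was labelled with Cy3 for Agilent miRNA arrays, per the labels. Spot intensity on a linear scale was read with Feature Extraction 10.7.3.1, and gProcessedSignal is corrected for background, per the file headers. A further table from the authors was read as log2 values (deposited values had r of 0.985 to 0.993 with the log2 median signal of the same array, column medians 5.41 to 5.43). The sources used here do not state its centring or normalization, so it served as an alternative.

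Control spots and flagged spots (2.30%) were left out, and no spot was saturated. The mean over the spots of a probe was divided by the array's 75th percentile of the 156 probes that every array detected. It was then multiplied by the geometric mean of that percentile over all arrays, floored at 1 and taken to log2. The brightest probe stood for a miRNA. The 172 miRNAs detected on at least 4 arrays of a group were fitted with limma 3.58.1 (R 4.3.3), with 6 group means, a trend in eBayes, two-sided tests and Benjamini-Hochberg adjustment over the 172. The fit was tested on simulated data, and its power for changes of the size seen in the members is not reported here. Correlations used permutation tests with 100000 resamples (scipy 1.17.1). The number of arrays limits precision.

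Groups came from the labels, and the design names individual mice, so arrays were taken as separate animals. Replicate numbers are the sample numbers of the titles. The files hold no mean spot signal, so the normexp alternative (offset 50) used the median signal. The miRNAs named are the 3 members, the 5 most alike miRNAs of each, miR-23a, and miRNAs of the marker lists. miR-101a was added after its shared bases were seen, and the changes of miR-365, miR-223 and miR-1 are given as examples. The members and lists were chosen with earlier results of these data known.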

Additional observations from a re-analysis of the deposited data

Results flagged for a closer look

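Of 18 groups of arrays, 1 for each of the 3 miRNAs in each of the 6 groups, 1 held a value far from the others by Dixon's criterion at the 95% level. Control replicate 24 of day 1 had a miR-451 level of 12.39 log2 units, whereas the other 5 controls of that day lay between 12.77 and 12.98. Its gap to the nearest of them was 0.652 of the group's range. On the same array miR-144 was at 7.34, the lowest of its group, and miR-486 at 5.24. Chance flags about 1 in 20 groups.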

How the results depend on the processing

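Each replicate number occurs once across the groups and pairs no samples, so pairing rested on the shared slide, and with slide as a fixed block the exposure changes of days 1, 3 and 28 were 0.17, 0.43 and -0.21 for miR-144, -0.22, 0.32 and -0.18 for miR-451, and -0.022, 0.56 and -0.069 for miR-486. Among the settings tried, no exposure change of a member passed at an adjusted p of 0.05. The changes at day 3 stayed above 0 in all 19 settings (0.35 to 0.60 for miR-144, 0.092 to 0.64 for miR-451 and 0.19 to 0.77 for miR-486) and without each array in turn (0.32 to 0.65, 0.19 to 0.58 and 0.42 to 0.78), with adjusted p from 0.138 upward over the settings. The difference between exposed lungs of days 28 and 3 stayed below 0 for all 3, and passed for miR-144 with array weights alone (-1.01, adjusted p = 0.0140). The correlations between members ran from 0.50 to 0.95 over their settings and stayed above 0. Values near 0 changed sign often, and the cause was not tested unless stated.

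Without scaling, the median difference of all 172 miRNAs was 0.56, -0.11 and -0.65 for exposure at days 1, 3 and 28, and 1.01 for control day 28 minus day 1, so member values there are shifted by construction. Relative to the median, the members' exposure changes at day 3 were 0.50 (miR-144), 0.46 (miR-451) and 0.60 (miR-486). The main scaling shifts all miRNAs of an array alike, so it gives these same values and they do not test it. Relative to the median of their own setting, the changes were 0.46, 0.13 and 0.58 with quantile normalization. They were 0.36, 0.41 and 0.20 with normexp, and 0.35, 0.42 and 0.19 with the authors' series table. No scaling gave day 1 changes of 0.44 (miR-451) and 0.64 (miR-486), a mean change of miR-451 of -0.0091, and day 3 against day 1 changes of -0.44, -0.088 and -0.15. It gave day 28 against day 1 changes of -1.69, -1.25 and -1.35 (adjusted p = 0.0342, 0.0431 and 0.0352), and control differences of 0.38 (miR-451) and 0.36 (miR-486) for day 3 minus 1, of 1.19, 0.93 and 1.00 for day 28 minus 1 (adjusted p = 0.0105, 0.0245 and 0.0150), and of 0.41 (miR-144) for day 28 minus 3.

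Normexp, whose offset of 50 is added before scaling, turned miR-486 to 0.25 for exposure at day 28, 0.65 for the day 28 against day 1 change (adjusted p = 0.0459), 0.042 for day 28 against day 3 and -0.23 for control day 28 minus 3. It took its control day 28 minus 1 difference to -0.68 (adjusted p = 0.00206), and miR-451's day 28 against day 1 change to -0.081. Under normexp the median of all 172 miRNAs was itself -0.64 for control day 28 minus 1 and 0.64 for the day 28 against day 1 change. Relative to these medians miR-486 stood at -0.044 and 0.011. The percentile over all probes gave 0.16 for miR-486 at day 1, -0.033 for the mean change and -0.41 for the day 28 against day 1 change of miR-451, 0.43, 0.18 and 0.24 for control day 28 minus 1, and 0.046 for miR-144 in control day 28 minus 3. The medians of all 172 miRNAs there were 0.26 for control day 28 minus 1 and -0.40 for the day 28 against day 1 change. Quantile normalization gave 0.041 for miR-486 at day 1, -0.13 and -0.060 for the mean and day 28 against day 1 changes of miR-451, and 0.14 and 0.027 for miR-144 in control day 28 minus 1 and minus 3. Scaling on the median gave 0.11 and 0.016 for the latter pair. The authors' series table gave 0.013 for miR-486 at day 1, 0.085 for miR-451 at day 28, 0.055 for miR-486 in control day 28 minus 1 and -0.026 for miR-451 in control day 28 minus 3. Against miR-23a, miR-486 stood at 0.084 at day 1 and 0.039 at day 28.

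The control day 28 minus 1 difference of miR-144 was 0.014 with the total gene signal, 0.022 with the mean over probes, 0.13 against miR-23a, 0.046 with the dimmer probe and 0.11 with array weights. The mean change of miR-451 was -0.0020 with the mean over probes, -0.0043 with the dimmer probe, -0.026 with slide as a fixed block, -0.016 with slide as a random block, -0.029 with scan day as a block and -0.038 with array weights. Its day 28 against day 1 change was -0.016 with the dimmer probe and -0.066 with array weights, and that of miR-486 was 0.038 without slide 1.

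Leaving out 1 array at a time turned the sign of these values: for miR-486, exposure at day 1 (-0.11 to 0.090), exposure at day 28 (-0.29 to 0.078) and day 28 against day 1 (-0.27 to 0.10); for miR-451, exposure at day 28 (-0.37 to 0.027), the mean change (-0.076 to 0.075), day 28 against day 1 (-0.15 to 0.25) and control day 28 minus 3 (-0.080 to 0.095); for miR-144, control day 3 minus 1 (-0.039 to 0.22) and control day 28 minus 1 (-0.14 to 0.11).

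Counts of called miRNAs out of all tested ran over the settings from 0 to 6, 2 and 5 for exposure at days 1, 3 and 28 (0 each as reported), from 0 to 14 for the mean change (1), from 0 to 1 for day 3 against day 1 (0), from 0 to 119 for day 28 against day 1 (0), from 0 to 3 for control day 3 minus 1 (0), from 0 to 142 for control day 28 minus 1 (12), from 0 to 6 for control day 28 minus 3 (1), from 0 to 1 for exposed day 3 minus 1 (0), from 0 to 17 for exposed day 28 minus 1 (0) and from 0 to 11 for exposed day 28 minus 3 (3). Leaving out 1 array at a time, these counts ran from 0 to 2, 0 and 4 for exposure at days 1, 3 and 28, from 0 to 5 for the mean change, from 0 to 1 for day 28 against day 1 and against day 3, from 0 to 22 for control day 28 minus 1, from 0 to 5 for control day 28 minus 3, and from 0 to 1, 2 and 6 for exposed day 3 minus 1, 28 minus 1 and 28 minus 3. For day 3 against day 1 and control day 3 minus 1 they were 0. The depth of signal over background limits miR-486 most, since its dimmer probe was above background on 23 arrays.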
